A study of Mus musculus with 12 samples.

Results

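The platelet fibrinogen receptor, integrin alphaIIb-beta3, and the proteins that switch it on were followed in mouse hematopoietic stem cells (HSCs) with and without RUNX1. The group holds 10 genes, chosen by symbol: the receptor chains Itga2b and Itgb3, the switch genes Rap1b and Rasgrp2, the tail-binding activators Tln1 and Fermt3, and the ILK-PINCH-parvin genes Lims1, Ilk, Parva and Parvb. They are 10 of 35869 genes in the deposited table, and all 10 were among the 19395 genes that passed the filter on low counts and were tested. The KO groups were CD41pos HSCs and CD41neg HSCs from bone marrow of MxCre1+/-,RUNX1f/f mice. The WT groups were the same gates from mice that carried the floxed alleles without the Cre, MxCre1-/-,RUNX1f/f. All mice of both genotypes had 4 injections of poly(I:C), and cells were taken 4 weeks after injection. The MxCre transgene is driven by an interferon-responsive promoter and is not specific to blood cells, and poly(I:C) induces it. Each of the 4 groups has 3 RNA-seq libraries. The labels give neither the animals' age nor whether animals were pooled, so p-values measure the spread between these libraries.

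In platelets and megakaryocytes, alphaIIb-beta3 rests in a bent, low-affinity form. An agonist raises calcium, the calcium-sensing exchange factor CalDAG-GEFI (Rasgrp2) loads the small GTPase Rap1 with GTP, and Rap1 brings talin to the membrane. Talin (Tln1) and kindlin-3 (Fermt3) bind the tail of the beta chain, and the receptor then opens and binds fibrinogen and von Willebrand factor. Integrin-linked kinase, PINCH1 (Lims1) and a parvin form a complex that links the engaged receptor to actin. CD41 is the alphaIIb chain itself, the product of Itga2b, and marks megakaryocyte-primed stem cells in the mouse. Itga2b RNA in the CD41pos gate against the CD41neg gate is therefore close to what the sort selected and is given as a description of the sort.

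The main differences were these. Rap1b and Lims1 rose in KO CD41pos HSCs, by 0.73 and 0.71 on the log2 scale. Both calls held under all 25 alternatives tried. Itga2b rose in KO CD41neg HSCs by 1.26, a call that held under 18 of 25 alternatives. Parva, at 5 to 176 counts a library, fell in KO cells of both gates. Its CD41neg call held under 21 of 24 alternatives and its CD41pos call under 4 of 24. Between gates, the same 6 genes (Itga2b, Itgb3, Rap1b, Rasgrp2, Fermt3 and Lims1) were higher in CD41pos HSCs of both genotypes. Tln1, Ilk and Parvb passed none of these comparisons in the fit of all 12 libraries.

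Library totals ran from 44108035 to 58946457 counts, and levels are given as CPM, counts scaled to library size with TMM factors, which compares a gene between libraries. The 8 stem cell markers looked at were detected, and their summed level was 1675 to 1888 CPM in CD41pos KO, 886 to 1743 CPM in CD41pos WT, 1448 to 2308 CPM in CD41neg KO and 1128 to 1785 CPM in CD41neg WT libraries. Runx1 had 270.4 to 382 CPM in CD41pos KO against 141 to 159 CPM in CD41pos WT libraries, and 157 to 171 CPM in CD41neg KO against 65.7 to 90.5 CPM in CD41neg WT libraries. A gene total counts reads outside the floxed part too, so it does not check the deletion. The labels number CD41pos WT 1, CD41pos WT 4, CD41neg WT 2 and CD41neg WT 4 up to 6. These 4 stood apart from the other 8 in the summed level of 7 immediate early genes, 2205 to 2569 CPM against 4627 to 6077 CPM. Nr4a1, 1 of the 7, had 18.6 to 27.7 CPM in these 4. It had 237 to 396 CPM in the 6 KO libraries and 320 to 345 CPM in the libraries labelled WT 3. Over genes with a mean of at least 10 CPM, CD41pos WT 3 differed most from its replicates. Its chi-square per degree of freedom was 375 against CD41pos WT 1 and 433 against CD41pos WT 4. Between those 2 it was 38.5, and in the other groups it was 20.5 to 163. The WT libraries numbered 4 differed in sex-linked RNA, with 22.5 CPM of the Y-linked Ddx3y in CD41pos WT 4 and 0 CPM in CD41neg WT 4. Sex was not balanced, since Xist had 0.84 to 1.00 CPM in the KO 1 and KO 3 libraries of both gates and 113 to 339 CPM in the 8 others. Of these 8, CD41pos WT 3, CD41pos WT 4, CD41neg WT 2 and CD41neg WT 3 also had 11.2 to 38.9 CPM of Ddx3y, so RNA of both sexes was present in 4 WT libraries, and a WT library may hold more than 1 animal. The WT libraries are numbered 1 to 10 and the KO libraries 13 to 22, so library order and genotype cannot be told apart. Differences of the 10 genes without the 4 libraries, or with a term for them, are given beside the results where a call changed. Without the 4, each WT group is 1 library, labelled WT 3. A term for the 4 sets KO libraries against the level of the libraries labelled WT 3. In sorted bulk cells, a change in the mix of cells and a change in RNA per cell cannot be told apart.

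Promoters of 4 of the genes are shown, as the 250 bases before their transcription start in RefSeq on GRCm38.p6 (the mm10 build): Itga2b as the gene of the sorted antigen, Rap1b and Lims1 as the genes that rose in KO CD41pos HSCs, and Fermt3 as a promoter with more than 1 match to RUNX letters. Each runs 5′ to 3′ on the gene's own strand. Capitals mark matches to the RUNX letters TGTGGT or TGCGGT, the ETS letters AGGAAG or CGGAAG, or the GATA letters AGATAA or TGATAA. Both strands were searched, so a match on the other strand appears as its reverse complement.
Itga2b promoter, chr11:102469884-102470133, minus strand: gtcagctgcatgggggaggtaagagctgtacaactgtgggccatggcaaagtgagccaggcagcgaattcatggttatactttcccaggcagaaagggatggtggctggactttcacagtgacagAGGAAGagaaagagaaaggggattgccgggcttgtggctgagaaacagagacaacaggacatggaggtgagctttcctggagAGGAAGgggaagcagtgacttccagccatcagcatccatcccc
Rap1b promoter, chr10:117845975-117846224, minus strand: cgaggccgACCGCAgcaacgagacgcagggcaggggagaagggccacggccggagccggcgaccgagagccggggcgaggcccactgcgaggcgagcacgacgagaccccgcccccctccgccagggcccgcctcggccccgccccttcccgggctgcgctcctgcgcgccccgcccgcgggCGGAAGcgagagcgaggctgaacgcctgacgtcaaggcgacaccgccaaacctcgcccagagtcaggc
Lims1 promoter, chr10:58323297-58323546, plus strand: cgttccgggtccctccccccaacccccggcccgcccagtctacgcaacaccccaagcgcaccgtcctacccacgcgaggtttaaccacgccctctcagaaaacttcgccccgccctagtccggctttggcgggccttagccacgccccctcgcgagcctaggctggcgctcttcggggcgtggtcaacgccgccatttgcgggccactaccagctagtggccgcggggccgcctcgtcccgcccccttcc
Fermt3 promoter, chr19:7019470-7019719, minus strand: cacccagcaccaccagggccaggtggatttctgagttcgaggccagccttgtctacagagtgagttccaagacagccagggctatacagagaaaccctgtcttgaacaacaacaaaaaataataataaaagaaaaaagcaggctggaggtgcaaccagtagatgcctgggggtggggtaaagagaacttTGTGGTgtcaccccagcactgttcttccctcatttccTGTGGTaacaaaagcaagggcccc
The Itga2b stretch holds 2 ETS matches and no RUNX match, and the Rap1b stretch holds 1 of each. The first Lims1 promoter holds none of the motifs, and that of Fermt3 holds 2 RUNX matches. RefSeq promoters were matched for 8 of the 10 genes, 12 promoters in all, and Itgb3 and Parva are named only. RUNX letters were in at least 1 promoter of 4 of these 8 genes and in 5 of the 12 promoters, where 18.6% of 32851 promoters of this length hold them. ETS letters were in promoters of 6 of the 8 genes and in 8 of 12 promoters, against 39.2% of all, and GATA letters in a promoter of 1 of the 8 genes, Lims1, against 16.6% of all. The 2 Ilk promoters overlap and share their RUNX match and an ETS match, so both shares count that stretch in each. A match describes letters in this window and says nothing of binding.

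The alpha chain was higher in KO cells, and the difference passed the test in the CD41neg gate. Itga2b (chr11:102453297-102470122, minus strand; coordinates of GENCODE vM21 on mm10) had 1028, 1268 and 1058 CPM in CD41pos KO libraries, against 628, 551 and 683 CPM in CD41pos WT libraries. In the CD41neg gate it had 270.1, 257 and 213 CPM in KO libraries, against 122, 138 and 49.6 CPM in WT libraries. In both gates every KO library lay above every WT library. Itga2b rose by 1.26 ± 0.28 on the log2 scale in KO CD41neg HSCs (SE, 3 libraries a group; edgeR quasi-likelihood, adjusted p = 0.0223). In CD41pos HSCs the difference was 0.85 ± 0.28, with a 95% interval of 0.24 to 1.46, and it missed the threshold of 0.05 (adjusted p = 0.0547). Both calls lie near the threshold. Without each of the 3 CD41neg KO libraries in turn the adjusted p in CD41neg HSCs was 0.0554 to 0.0725, and without CD41neg WT 3 or CD41neg WT 4 that in CD41pos HSCs was 0.0445 and 0.00371. Without the 4 WT libraries that stood apart, which leaves WT 3 alone in each WT group, the difference was 1.12 in CD41pos and 0.84 in CD41neg HSCs. With a term for those libraries neither passed, at 0.68 in CD41pos HSCs (adjusted p = 0.19) and 1.12 in CD41neg HSCs (adjusted p = 0.0631). Between the gates that its protein defined, Itga2b was higher in CD41pos HSCs by 2.18 ± 0.29 in KO and by 2.59 ± 0.29 in WT.

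The beta chain was the scarcer chain per length of transcript, and of the 10 genes it had the largest fitted difference between gates in each genotype. Itgb3 (chr11:104608000-104670476, plus strand), which pairs with either alphaIIb or alphaV, had 102, 153 and 135 CPM in CD41pos KO libraries, against 92.02, 41.0 and 89.3 CPM in CD41pos WT libraries. It had 14.6, 7.72 and 12.2 CPM in CD41neg KO libraries, against 18.1, 6.43 and 7.03 CPM in CD41neg WT libraries. The KO libraries lay above the WT libraries in the CD41pos gate, and the genotypes overlapped in the CD41neg gate. Neither difference passed the test: 0.81 ± 0.40 in CD41pos HSCs (95% interval -0.06 to 1.69, adjusted p = 0.167) and 0.12 ± 0.41 in CD41neg HSCs (-0.77 to 1.01, adjusted p = 0.877). CD41pos WT 3, at 41.0 CPM, was the low library of its group. With a term for the 4 WT libraries the CD41pos difference was 1.61 (adjusted p = 0.0186). Without them, which leaves CD41pos WT 3 alone in its group, it was 1.77. Between gates, Itgb3 was higher in CD41pos HSCs by 3.50 ± 0.44 in KO (adjusted p = 0.00142) and by 2.81 ± 0.43 in WT (adjusted p = 0.00394), which exceeded the spread between libraries in both genotypes.

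**Figure D1:**
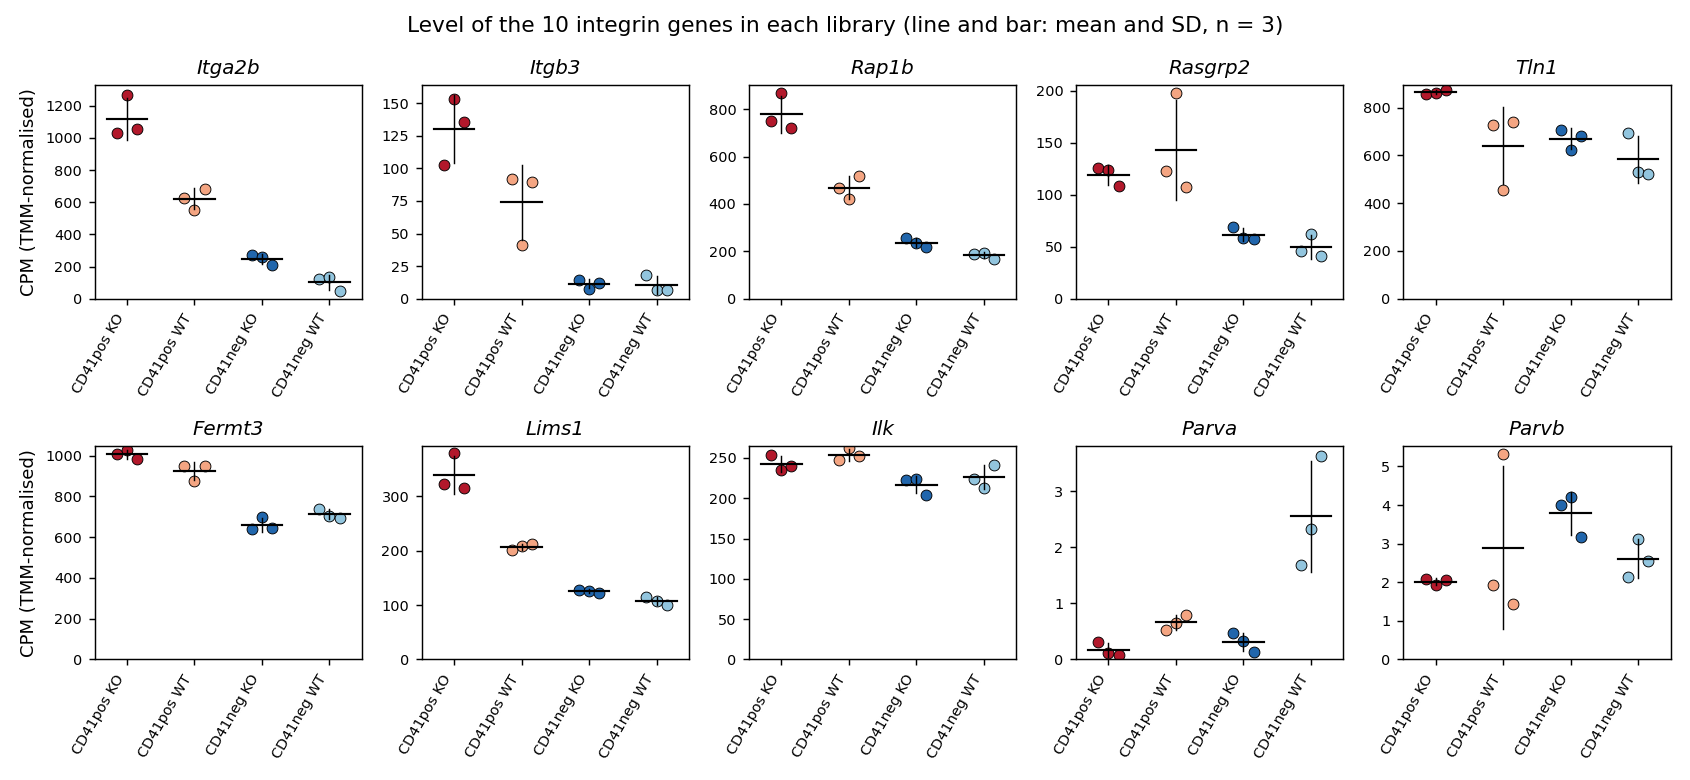
Levels of the 10 genes in each of the 12 libraries, as TMM-scaled CPM on linear axes from 0, 1 panel a gene; points are libraries, and lines and bars are group means and SDs (n = 3), with CD41pos KO, CD41pos WT, CD41neg KO and CD41neg WT side by side. Itga2b, Rap1b and Lims1 have their KO points above all WT points in the CD41pos gate, the Ilk points of the genotypes overlap in both gates, and Parva lies below 4 CPM throughout.

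The balance of the chains was read per library as the ratio of Itga2b to Itgb3, each per kilobase of transcript. It was 16.9, 13.9 and 13.1 in CD41pos KO libraries and 11.5, 22.7 and 12.9 in CD41pos WT libraries. In the CD41neg gate it was 31.2, 56.0 and 29.4 in KO libraries and 11.3, 36.1 and 11.9 in WT libraries. Within WT, the libraries labelled WT 3 had the highest ratio of each gate, and the other WT libraries stayed between 11.3 and 12.9. On deposited TPM, the log2 ratio averaged 4.87 ± 0.19 in CD41pos KO and 4.90 ± 0.53 in CD41pos WT libraries, and 6.23 ± 0.52 in CD41neg KO and 5.07 ± 0.93 in CD41neg WT libraries (SD, n = 3 each). The level of this TPM ratio carries the uncertain lengths behind the deposited TPM and is higher than the ratio per kilobase, 26.3 to 33.9 against 13.1 to 16.9 in CD41pos KO libraries, so it is used for differences between groups alone. The KO minus WT difference was -0.04 in CD41pos HSCs (two-sided exact permutation test, p = 1) and 1.16 in CD41neg HSCs (exact p = 0.3). CD41pos minus CD41neg was -1.36 in KO (exact p = 0.1) and -0.16 in WT (exact p = 0.9). With 3 libraries against 3 the smallest p this test can give is 0.1, so none could pass. Without the 4 WT libraries each WT group is 1 library, and the KO minus WT differences were -0.64 in CD41pos and 0.086 in CD41neg HSCs.

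**Figure D2:**
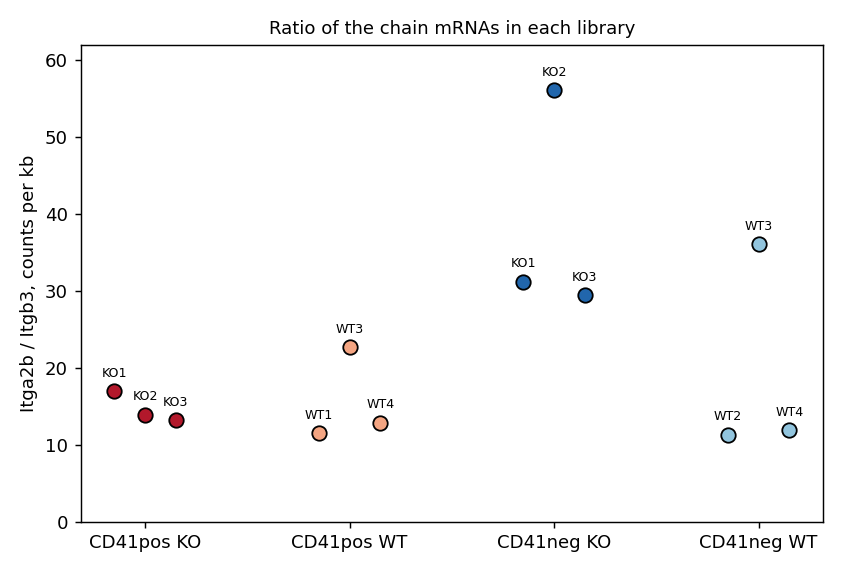
Ratio of Itga2b to Itgb3, each in CPM per kilobase of transcript, in each library on a linear axis from 0, by group; each labelled point is 1 library. The CD41neg KO libraries sit at 29.4 to 56.0, the CD41pos KO libraries at 13.1 to 16.9, and the WT groups spread from 11.3 to 36.1.

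Of the pair that switches the receptor on, the GTPase rose in KO cells and its exchange factor did not pass the test. Rap1b (chr10:117813871-117846035, minus strand), the main Rap1 form of platelets, had 750.3, 868 and 719 CPM in CD41pos KO libraries, against 468, 422 and 518 CPM in CD41pos WT libraries. It had 255, 237 and 219 CPM in CD41neg KO libraries, against 189.6, 194 and 169 CPM in CD41neg WT libraries. In neither gate did the genotypes overlap. Rap1b rose by 0.73 ± 0.12 in KO CD41pos HSCs (adjusted p = 0.00371), and this call held under all 25 alternatives tried, with adjusted p at most 0.0335. In CD41neg HSCs the difference was 0.36 ± 0.12 (95% interval 0.11 to 0.62) and missed the threshold (adjusted p = 0.0748), but was past it without CD41pos WT 3 (adjusted p = 0.0253). Between gates Rap1b was higher in CD41pos HSCs by 1.72 ± 0.12 in KO (adjusted p = 2.28e-05) and by 1.35 ± 0.12 in WT (adjusted p = 0.000164).

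Rasgrp2 (chr19:6399340-6415216, plus strand) had 125, 124 and 108 CPM in CD41pos KO libraries, against 122, 197 and 108 CPM in CD41pos WT libraries. It had 68.8, 58.4 and 57.8 CPM in CD41neg KO libraries, against 45.5, 62.5 and 41.2 CPM in CD41neg WT libraries. The genotypes overlapped in both gates, and CD41pos WT 3 was the highest library of all. The KO against WT difference was -0.26 ± 0.22 in CD41pos HSCs (95% interval -0.73 to 0.21, adjusted p = 0.414) and 0.31 ± 0.22 in CD41neg HSCs (-0.16 to 0.78, adjusted p = 0.386). With a term for the 4 WT libraries the CD41pos value was -0.65 (adjusted p = 0.0118). Without them, which leaves CD41pos WT 3 alone in its group, it was -0.63. Rasgrp2 was higher in CD41pos than in CD41neg HSCs by 0.95 ± 0.22 in KO (adjusted p = 0.0388) and by 1.52 ± 0.22 in WT (adjusted p = 0.00307). The KO call was lost, with adjusted p of 0.0692 to 0.163, without each of the 6 KO libraries in turn.

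The tail-binding activators were abundant in all 4 groups, and neither passed the test between genotypes in the fit of all libraries. Tln1 (chr4:43531519-43562691, minus strand), which unclasps the integrin tails, had 858, 861 and 874 CPM in CD41pos KO libraries, against 727, 454 and 739 CPM in CD41pos WT libraries. It had 708, 621 and 680.0 CPM in CD41neg KO libraries, against 695, 531 and 522 CPM in CD41neg WT libraries. The KO libraries lay above the WT libraries in the CD41pos gate only, where the low WT value was again that of WT 3. The differences were 0.43 ± 0.17 in CD41pos HSCs (95% interval 0.06 to 0.81, adjusted p = 0.0941) and 0.20 ± 0.17 in CD41neg HSCs (-0.17 to 0.57, adjusted p = 0.484), and neither passed. With a term for the 4 WT libraries the CD41pos value was 0.75 (adjusted p = 0.0111). Without them, which leaves CD41pos WT 3 alone in its group, it was 1.03. Between gates it was 0.37 ± 0.17 in KO (adjusted p = 0.379) and 0.13 ± 0.17 in WT (adjusted p = 0.70).

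Fermt3 (chr19:6998958-7019469, minus strand), the kindlin of blood cells, had 1007, 1029 and 983 CPM in CD41pos KO libraries, against 948, 874 and 951 CPM in CD41pos WT libraries. It had 639.7, 698 and 643 CPM in CD41neg KO libraries, against 739.6, 705 and 692 CPM in CD41neg WT libraries. The groups were tight, with the KO libraries just above WT in the CD41pos gate and overlapping WT in the CD41neg gate. The differences were 0.12 ± 0.09 in CD41pos HSCs (95% interval -0.06 to 0.31, adjusted p = 0.323) and -0.11 ± 0.09 in CD41neg HSCs (-0.29 to 0.08, adjusted p = 0.438), and both intervals end below the 0.73 of Rap1b. Fermt3 was higher in CD41pos HSCs by 0.61 ± 0.09 in KO (adjusted p = 0.00255) and by 0.38 ± 0.09 in WT (adjusted p = 0.026). The WT call was lost without 9 of the 12 libraries, one at a time, with adjusted p of 0.0514 to 0.0865; it held without CD41pos WT 3, CD41neg KO 1 or CD41neg KO 2. Without the 4 WT libraries that stood apart each WT group is WT 3 alone. There the WT gate difference was 0.23 and the KO against WT difference in CD41pos HSCs was 0.30.

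Among members of the complex that joins the receptor to actin, Lims1 rose in KO CD41pos HSCs and Ilk did not pass the test. Of the member parvins, Parva fell in KO cells, at low counts. Parvg, a parvin outside the members, is given below. Lims1 (chr10:58323466-58424691, plus strand), which encodes PINCH1, had 323, 379 and 316 CPM in CD41pos KO libraries, against 201, 208 and 212 CPM in CD41pos WT libraries. It had 129, 126 and 122 CPM in CD41neg KO libraries, against 114, 107 and 99.5 CPM in CD41neg WT libraries. The genotypes did not overlap in either gate. Lims1 rose by 0.71 ± 0.11 in KO CD41pos HSCs (adjusted p = 0.00277), a call that held under all 25 alternatives with adjusted p at most 0.0288. In CD41neg HSCs the difference was 0.23 ± 0.10 and did not pass (adjusted p = 0.183). Between gates Lims1 was higher in CD41pos HSCs by 1.44 ± 0.11 in KO (adjusted p = 3.38e-05) and by 0.95 ± 0.11 in WT (adjusted p = 0.000786).

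Ilk (chr7:105736592-105742925, plus strand), the scaffold and pseudokinase at the centre of the complex, was the flattest gene of the group. It had 253, 234 and 240.4 CPM in CD41pos KO libraries, against 248, 262 and 252 CPM in CD41pos WT libraries. It had 223, 223 and 204 CPM in CD41neg KO libraries, against 224, 213 and 242 CPM in CD41neg WT libraries. The genotypes overlapped in both gates, and the differences were -0.07 ± 0.10 in CD41pos HSCs (95% interval -0.27 to 0.14, adjusted p = 0.661) and -0.06 ± 0.10 in CD41neg HSCs (-0.27 to 0.15, adjusted p = 0.725). Between gates it was 0.16 ± 0.10 in KO (adjusted p = 0.539) and 0.17 ± 0.10 in WT (adjusted p = 0.336). Its counts are uncertain. The library kit does not mark strand, and 73.2% of the 50-base stretches of the Ilk transcript also lie in other genes, 58.2% in Taf10 on the opposite strand. The other members shared at most 1.58% of their stretches, the value of Fermt3.

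The parvins were the scarce members. Parva (chr7:112427505-112591692, plus strand), the widely expressed alpha-parvin, had only 17, 6 and 5 raw counts in CD41pos KO libraries, against 30, 29 and 47 in CD41pos WT libraries. It had 24, 19 and 8 raw counts in CD41neg KO libraries, against 87, 103 and 176 in CD41neg WT libraries. Every KO library lay below every WT library in both gates. Parva fell by 3.04 ± 0.60 in KO CD41neg HSCs (adjusted p = 0.0142) and by 1.96 ± 0.60 in KO CD41pos HSCs (adjusted p = 0.0439). The CD41pos call was lost without 10 of the 12 libraries, one at a time, with adjusted p of 0.0513 to 0.155, and held without CD41pos KO 1 or CD41neg KO 3. The CD41neg call was lost without CD41neg WT 4 (adjusted p = 0.0554) or CD41neg KO 3 (adjusted p = 0.0605). Without the 4 WT libraries that stood apart both calls were lost, at -2.91 in CD41neg HSCs (adjusted p = 0.0699) and -1.86 in CD41pos HSCs (adjusted p = 0.145). With a term for them the CD41neg call held (-2.97, adjusted p = 0.0278) and the CD41pos call was lost (-1.89, adjusted p = 0.0729). Between gates Parva passed in neither genotype, at -0.87 ± 0.60 in KO (adjusted p = 0.643) and -1.95 ± 0.57 in WT (adjusted p = 0.0677). The summed markers of stromal and endothelial cells were, like Parva, lower in KO libraries of both gates. Within CD41neg WT libraries Parva had 1.70, 2.34 and 3.64 CPM in WT 2, WT 3 and WT 4. There the marker sum was 910.1, 290 and 225 CPM, and in WT 2 it held 361 CPM of Col1a1 and 246 CPM of Col1a2. Single markers were ordered differently. Cdh5 had 2.85 CPM in WT 2 and 6.76 CPM in WT 4, and Kdr had 29.1 CPM in WT 2 and 14.8 CPM in WT 4. Some basophil and neutrophil markers fell in KO cells as well, as given below. Of these 8 markers, 5 fell and 0 rose in KO CD41pos HSCs, where 7.27% of all genes fell. In KO CD41neg HSCs 7 fell and 0 rose, where 3.97% of all genes fell. Pecam1 and Kdr lay higher in CD41pos KO libraries without passing. Pecam1 had 63.7 to 65.9 CPM in CD41pos KO against 24.3 to 56.5 CPM in CD41pos WT libraries. Kdr had 14.7 to 28.5 CPM against 2.77 to 12.8 CPM. The summed level of the 8 markers was 97.5 to 118 CPM in CD41pos KO and 215 to 428 CPM in CD41pos WT libraries. It was 68.5 to 98.0 CPM in CD41neg KO and 225 to 910.1 CPM in CD41neg WT libraries, with none of the 8 at 0 in any library. Their part in the Parva result was not tested.

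Parvb (chr15:84232043-84315688, plus strand), which encodes beta-parvin, had 2.08, 1.92 and 2.05 CPM in CD41pos KO libraries, against 1.93, 5.31 and 1.45 CPM in CD41pos WT libraries. It had 4.00, 4.20 and 3.16 CPM in CD41neg KO libraries, against 2.12, 3.13 and 2.56 CPM in CD41neg WT libraries. CD41pos WT 3 was far above the other CD41pos WT libraries, and in CD41neg HSCs the KO libraries lay just above WT. Neither difference passed the test, at -0.52 ± 0.42 in CD41pos HSCs (95% interval -1.43 to 0.39, adjusted p = 0.399) and 0.54 ± 0.42 in CD41neg HSCs (-0.37 to 1.45, adjusted p = 0.438). Without the 4 WT libraries that stood apart, which leaves CD41pos WT 3 alone in its group, the CD41pos value was -1.30. Between gates it was -0.91 ± 0.42 in KO (adjusted p = 0.376) and 0.15 ± 0.42 in WT (adjusted p = 0.88).

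**Figure D3:**
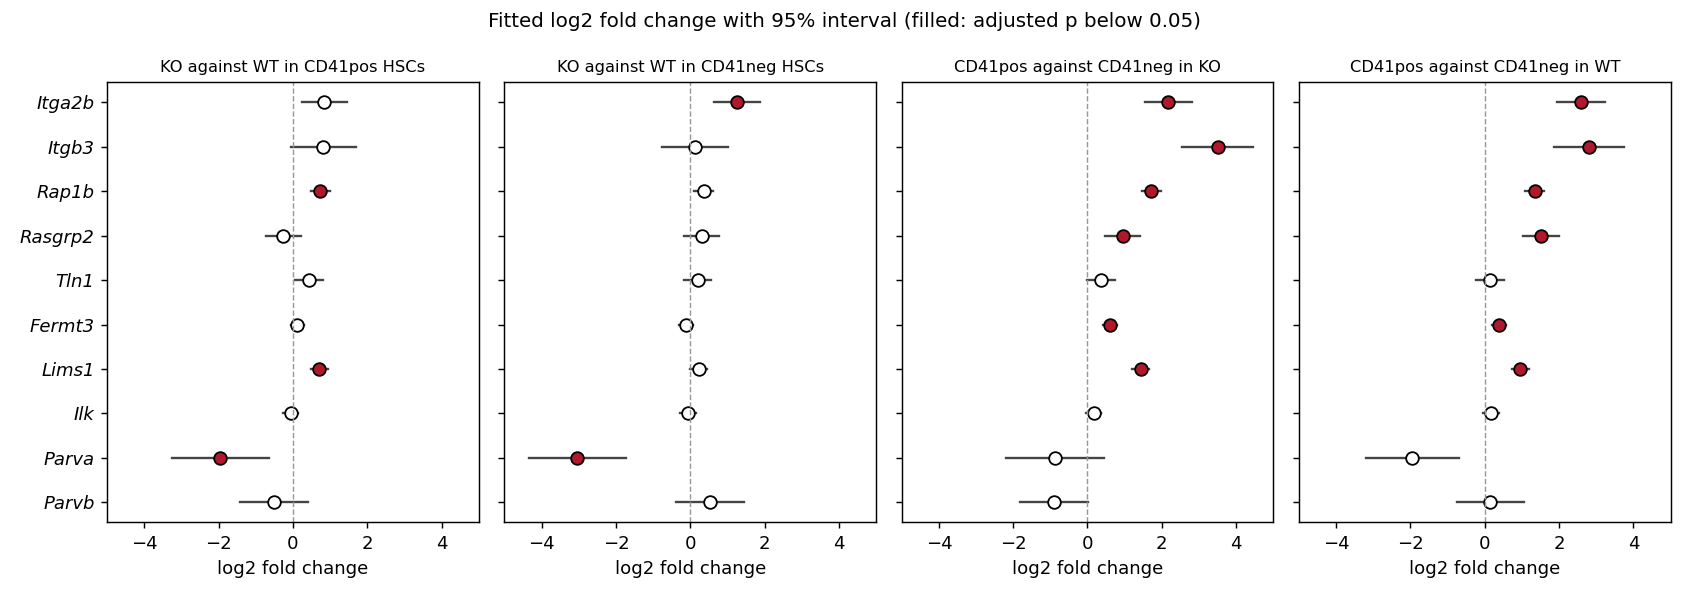
Log2 fold change of each gene from the edgeR fit with its 95% interval, for KO against WT in CD41pos and CD41neg HSCs and for CD41pos against CD41neg HSCs in KO and WT; filled points passed an adjusted p of 0.05. Rap1b and Lims1 pass in KO CD41pos HSCs, Itga2b in KO CD41neg HSCs and Parva, below 0, in both, while the gate panels have 6 filled points each.

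Counted over the group, 2 of the 10 genes rose and 1 fell in KO CD41pos HSCs. Of all genes tested 9.79% rose, 7.27% fell and 17.1% changed in either direction, and with 10 genes the count is not read as set apart from that background. In KO CD41neg HSCs 1 rose and 1 fell, where 3.85% of all genes rose, 3.97% fell and 7.82% changed. KO and WT libraries did not overlap for 7 of the 10 genes in CD41pos HSCs, 6 of them higher in KO, where 44.3% of all genes did not, 21.9% higher and 22.4% lower. In CD41neg HSCs they did not overlap for 5 genes, 4 of them higher, where 35.5% of all genes did not, 18.5% higher and 17% lower. The median difference of the 10 was 0.28 in CD41pos HSCs, where that of all genes was -0.08, and 0.22 in CD41neg HSCs, where it was -0.03. These comparisons share no libraries with each other but share 1 fit. Same-numbered KO libraries deviated together across the gates, so the comparisons are not independent.

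Between gates the 10 genes moved upward where they passed. In KO, 6 of the 10 genes were higher in CD41pos HSCs and none lower, where 1.56% of all genes were higher, 1.23% lower and 2.79% changed. In WT the same 6 were higher and none lower, where 2.72% of all genes were higher, 2.87% lower and 5.59% changed. One of the 6 is the sorted antigen's own gene. The libraries of the gates did not overlap for 9 of the 10 genes in KO, 8 of them higher in CD41pos HSCs, where 29.9% of all genes did not overlap, 15.7% higher and 14.1% lower. In WT they did not overlap for 8 genes, 7 of them higher, where 22.8% of all genes did not, 11.4% higher and 11.4% lower. The median difference between gates was 0.78 in KO and 0.67 in WT, and those of all genes were -0.02 and 0.01. Megakaryocyte and platelet markers moved with the gate as well: 8 of 12 were higher in CD41pos HSCs in KO and 9 of 12 in WT, and none was lower. Their sum was 1287 to 1435 CPM in CD41pos KO and 589 to 738 CPM in CD41neg KO libraries, and 1177 to 1428 CPM in CD41pos WT and 514 to 659 CPM in CD41neg WT libraries. Between genotypes within a gate the ranges of this sum overlapped, but single markers moved in both directions: 3 rose and 1 fell of 12 in KO CD41pos HSCs, and 1 rose and 0 fell in KO CD41neg HSCs. Chosen after their values were seen, Treml1 had 130.05 to 142 CPM in CD41pos KO and 35.1 to 59.9 CPM in CD41pos WT libraries. Gp5 had 339 to 394 CPM in CD41pos KO and 182 to 202 CPM in CD41pos WT libraries, and Pf4 had 93.5 to 113 CPM in CD41pos KO and 222 to 357 CPM in CD41pos WT libraries. Neutrophil and monocyte markers moved with the gate too, 2 of 7 higher in CD41pos HSCs in KO and 3 of 7 in WT, and none lower. Their sum was 1700 to 3876 CPM in CD41pos KO and 442 to 1116 CPM in CD41neg KO libraries, and 4752 to 6050 CPM in CD41pos WT and 1672 to 2706 CPM in CD41neg WT libraries. In KO cells of each gate 3 of these 7 fell, as did 4 of 6 basophil and mast cell markers in CD41pos HSCs and 3 of 6 in CD41neg HSCs, and 1 of 7 lymphocyte and plasma cell markers in each gate. Of all genes 9.79% rose and 7.27% fell in KO CD41pos HSCs, and 3.85% rose and 3.97% fell in KO CD41neg HSCs. The part of these marker lists in the differences between gates or genotypes was not tested.

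KO libraries with the same number deviated together across gates. A fit of the 6 KO libraries alone put 8 of the 10 genes past the threshold without pairing, where 8.38% of all genes passed, and 8 with the pairs as a block, chosen after seeing the data, where 12.4% passed. The added genes were Tln1, at 0.36 without pairing (adjusted p = 0.0148) and 0.36 with it (adjusted p = 0.00949), and Parvb, at -0.92 (adjusted p = 0.0446) and -0.91 (adjusted p = 0.0464). The block in the fit of all libraries gave 5 genes, where 0.804% of all genes passed, and there Fermt3 was lost (adjusted p = 0.0555).

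Whether the genotype difference itself changed with the gate was tested by the interaction. None of the 10 genes passed in edgeR, 2 had an unadjusted p below 0.05, and DESeq2 called 0. Of all genes, edgeR called 0, a share of 0%, with 1093 below an unadjusted 0.05, and DESeq2 called 73. The 2 members were Lims1, with an interaction of 0.48 ± 0.15 (adjusted p = 0.735), and Rap1b, with 0.37 ± 0.16 (adjusted p = 0.881). The differences that passed in one gate and missed in the other, those of Rap1b, Lims1 and Itga2b, are therefore not shown to differ between gates. Without the 4 WT libraries that stood apart, where each WT group is 1 library assumed to vary like the others, 4 members passed: Tln1 at 0.70 (adjusted p = 0.00841), Rap1b at 0.69 (adjusted p = 0.0337), Fermt3 at 0.40 (adjusted p = 0.0475) and Lims1 at 0.58 (adjusted p = 0.0486). Of all genes, 15.1% passed the interaction in that fit. For KO against WT 8 of the 10 genes passed in CD41pos HSCs, where 33.6% of all genes did, and 1 in CD41neg HSCs, where 7.45% did. Between gates Tln1 also passed in KO there, at 0.39 (adjusted p = 0.00987).

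Levels were set between genes as CPM per kilobase of the longest matched transcript. In CD41pos KO libraries Fermt3 stood first at 389 ± 8.83 CPM per kb (SD, n = 3), above Itga2b at 325 ± 38.0 and Rap1b at 286 ± 28.8, whose ranges of 299 to 369 and 264 to 318 overlapped. Ilk followed at 135 ± 5.37, then Tln1 at 103 ± 1.01, Lims1 at 78.5 ± 8.05, Rasgrp2 at 54.3 ± 4.4 and Itgb3 at 22.5 ± 4.49. Parvb, at 0.53, and Parva, at 0.038, closed the order. In CD41pos WT libraries the first 5 places were the same, with Fermt3 at 357 ± 16.9, Itga2b at 181 ± 19.2 and Rap1b at 172 ± 17.6, whose ranges again overlapped, and Rasgrp2 at 65.0 ± 21.9 overlapped Tln1 at 76.2 ± 19.2 and lay just above Lims1 at 47.9 ± 1.35. In the CD41neg gate Fermt3 also stood first, at 255 ± 12.6 in KO and 275 ± 9.51 in WT libraries, and Ilk came next at 121 ± 6.01 and 126 ± 8.24. Rap1b and Tln1 followed, with overlapping ranges in both genotypes, and then Itga2b, whose range in KO overlapped that of Tln1, at 71.8 ± 8.78 in KO and 30.0 ± 13.7 in WT libraries. Itgb3 ranked next above the parvins in all 4 groups, at 1.99 ± 0.60 in CD41neg KO and 1.82 ± 1.14 in CD41neg WT libraries. The place of Ilk in these orders is uncertain beyond its SD, since 73.2% of its 50-base stretches also lie in other genes.

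**Figure D4:**
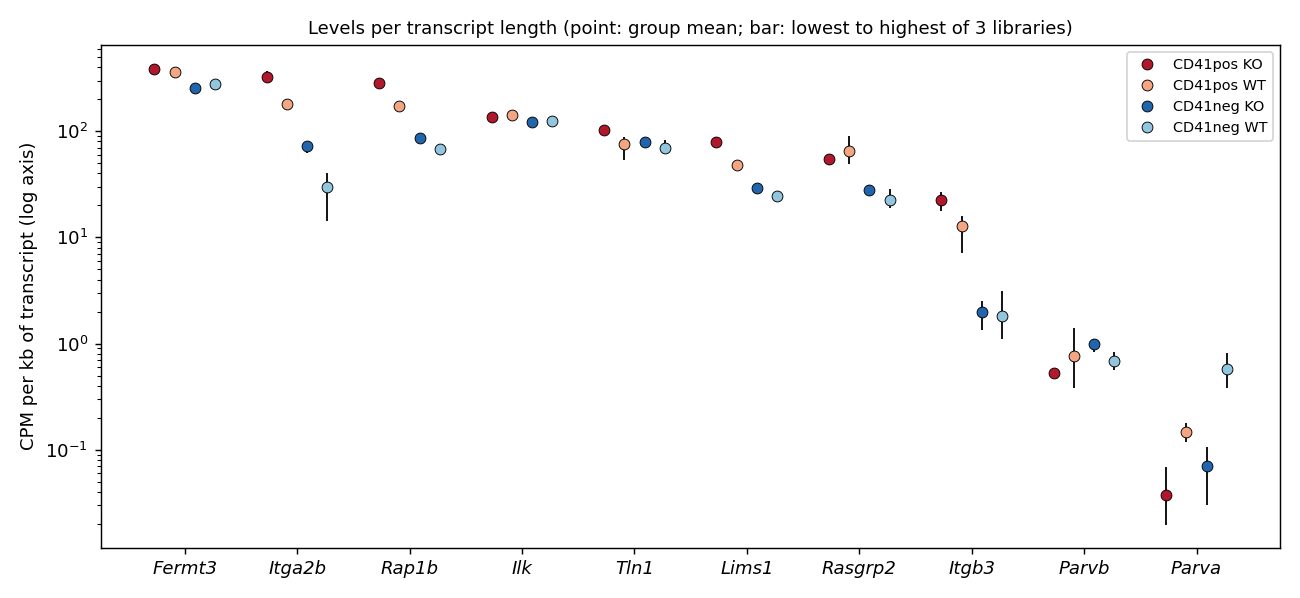
Mean level of each gene in CPM per kilobase of transcript on a log axis, with the lowest and highest library of each group as bars. Fermt3 is first in all 4 groups and the parvins are last, while Itga2b stands next to Fermt3 in the CD41pos groups and below Tln1 in the CD41neg groups.

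The genes whose pattern was most like each chain were found by Pearson's r of log2 CPM over the 12 libraries, among 9726 genes with a mean of at least 10 CPM, predicted genes left out. These libraries share the gates and genotypes, so the values describe likeness only. Nearest to Itga2b were Rab27b (r = 0.99), a GTPase of platelet dense granules, Rab11a (0.99), a recycling GTPase, F2rl2 (0.99), the thrombin receptor PAR3, Adgrg3 (0.98) and Lpgat1 (0.98). Rab27b averaged 116 ± 15.1 CPM in CD41pos KO, 62.2 ± 11.8 in CD41pos WT, 27.9 ± 3.53 in CD41neg KO and 11.2 ± 2.66 in CD41neg WT libraries (SD, n = 3 each). F2rl2 averaged 112 ± 19.4 CPM in CD41pos KO, 49.2 ± 4.26 in CD41pos WT, 17.5 ± 5.14 in CD41neg KO and 3.43 ± 2.30 in CD41neg WT libraries. Nearest to Itgb3 were Sdpr (r = 0.98), a caveolar coat protein, Ache (0.96), acetylcholinesterase, Dock8 (0.96), an exchange factor of leukocytes, Mef2c (0.96), a transcription factor, and Rap1b (0.96). Among the members, Rap1b ranked 22nd for Itga2b (r = 0.96) and Lims1 ranked 40th (r = 0.94), while the partner chain Itgb3 ranked 98th (r = 0.91).

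The wider pathway was read from 6 lists. Of all genes tested, 9.79% rose and 7.27% fell in KO CD41pos HSCs, with a median of -0.08. In KO CD41neg HSCs 3.85% rose and 3.97% fell, with a median of -0.03. Between gates 1.56% were higher and 1.23% lower in KO, and 2.72% higher and 2.87% lower in WT. The lists were not tested against these shares, and a count in a small list is not read as set apart from them. Of 13 genes that control Rap1, 2 rose and 1 fell in KO CD41pos HSCs, and 2 rose and 2 fell in KO CD41neg HSCs. Sipa1l1, which encodes a GTPase-activating protein that turns Rap off, had 161, 190.3 and 195 CPM in CD41pos KO libraries, against 76.6, 52.2 and 71.8 CPM in CD41pos WT libraries. It rose by 1.45 ± 0.17 in KO CD41pos HSCs (adjusted p = 0.00172) and by 0.99 ± 0.17 in KO CD41neg HSCs (adjusted p = 0.00786). Rapgef6, an exchange factor that turns Rap on, rose by 1.01 ± 0.14 (adjusted p = 0.00271) and 0.70 ± 0.14 (adjusted p = 0.0154) in the same gates. Rapgef3, the cyclic AMP-gated exchange factor Epac1, fell by 1.42 ± 0.33 in KO CD41pos HSCs (adjusted p = 0.0154), and Sipa1, another GTPase-activating protein of Rap, fell by 0.47 ± 0.10 in KO CD41neg HSCs (adjusted p = 0.0203). None of the 13 passed between gates in either genotype. The list's median was 0.31 in KO CD41pos HSCs and 0.03 in KO CD41neg HSCs.

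Of 14 partners of talin, kindlin and the ILK complex, 1 rose and 3 fell in KO CD41pos HSCs. Pxn, the focal adhesion adaptor paxillin, fell by 0.48 ± 0.13 (adjusted p = 0.0305), Parvg, the parvin of blood cells, fell by 0.37 ± 0.11 (adjusted p = 0.0428), and Rsu1, which binds PINCH1, rose by 0.42 ± 0.13 (adjusted p = 0.0467). Parvg averaged 189.7 ± 13.4 CPM in CD41pos KO and 245 ± 21.4 CPM in CD41pos WT libraries (SD, n = 3 each), where Parva and Parvb stayed under 6 CPM. In KO CD41neg HSCs only Tgfb1i1, the paxillin relative Hic-5, passed, lower by a log2 difference of -2.37 ± 0.50 (adjusted p = 0.0173). Zyx, zyxin, was the only one of the 14 to pass between gates, higher in CD41pos HSCs of WT by 0.88 ± 0.15 (adjusted p = 0.0062). The list's median was -0.33 in KO CD41pos HSCs and -0.25 in KO CD41neg HSCs.

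Of 5 inhibitors of integrin activation none passed in KO CD41pos HSCs, where the list's median was -0.11. Dok2, an adaptor that competes for the integrin tail, rose by 0.91 ± 0.18 in KO CD41neg HSCs (adjusted p = 0.0138). It was higher in CD41pos HSCs by 0.81 ± 0.18 in KO (adjusted p = 0.0321) and by 1.21 ± 0.18 in WT (adjusted p = 0.00327).

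Signalling genes upstream and downstream of the receptor mostly moved upward where they passed. Of 25, 10 rose and 1 fell in KO CD41pos HSCs, where 9.79% of all genes rose and 7.27% fell. In KO CD41neg HSCs 7 rose and 0 fell, where 3.85% of all genes rose and 3.97% fell. The medians were 0.50 and 0.38, and those of all genes -0.08 and -0.03. Prkca, the protein kinase C alpha that acts upstream of Rap1 in platelets, had 63.8, 80.9 and 69.0 CPM in CD41pos KO libraries, against 34.5, 29.4 and 36.8 CPM in CD41pos WT libraries. It had 27.8, 23.6 and 26.4 CPM in CD41neg KO libraries, against 13.0, 12.9 and 11.8 CPM in CD41neg WT libraries, with no overlap in any comparison. Prkca rose by 1.09 ± 0.15 in KO CD41pos HSCs (adjusted p = 0.0021) and by 1.04 ± 0.15 in KO CD41neg HSCs (adjusted p = 0.00362). It was higher in CD41pos than in CD41neg HSCs by 1.46 ± 0.15 in KO (adjusted p = 0.000338) and by 1.42 ± 0.15 in WT (adjusted p = 0.00054). Ptk2, focal adhesion kinase, rose by 1.22 ± 0.19 in KO CD41pos HSCs (adjusted p = 0.00363) and Gna13, the G protein that binds the beta3 tail, by 0.60 ± 0.10 (adjusted p = 0.00427). In KO CD41neg HSCs, Gnaq, the G protein of the thrombin receptors, rose by 0.83 ± 0.15 (adjusted p = 0.0107) and the Src family kinase Lyn by 0.62 ± 0.14 (adjusted p = 0.0211). Between gates 4 of the 25 were higher in each genotype and none lower, among them Fyb, the adaptor ADAP, at 0.92 ± 0.14 in KO (adjusted p = 0.00478) and 0.92 ± 0.14 in WT (adjusted p = 0.00412).

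Other integrin subunits also moved upward more often than downward where they passed. Of 20 tested, 7 rose and 1 fell in KO CD41pos HSCs, where 9.79% of all genes rose and 7.27% fell. In KO CD41neg HSCs 4 rose and 2 fell, where 3.85% of all genes rose and 3.97% fell. The medians were 0.61 and 0.63, and those of all genes -0.08 and -0.03. Itgb2, the beta chain of leukocyte integrins, averaged 225 ± 10.9 CPM in CD41pos KO and 81.9 ± 21.6 CPM in CD41pos WT libraries, and 144 ± 11.1 CPM in CD41neg KO and 74.9 ± 21.9 CPM in CD41neg WT libraries (SD, n = 3 each). It rose by 1.45 ± 0.22 in KO CD41pos HSCs (adjusted p = 0.00299) and by 0.94 ± 0.22 in KO CD41neg HSCs (adjusted p = 0.0245). Itga4, the alpha chain of the marrow homing receptor VLA-4, rose by 1.03 ± 0.19 (adjusted p = 0.00626) and 1.18 ± 0.19 (adjusted p = 0.00634) in the same gates, and Itga9 rose by 1.77 ± 0.33 in KO CD41pos HSCs (adjusted p = 0.00699). Itgb6, which pairs with alphaV, was 0.94, 0.98 and 0.92 CPM in CD41neg KO libraries, against 0, 0.14 and 0 CPM in CD41neg WT libraries. It rose in KO CD41neg HSCs (adjusted p = 0.0088), and its fitted fold, against libraries at or near 0, is not given. Itgb8 was not tested, for low counts.

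Of the ligands, the fibrinogen chain genes Fga, Fgb and Fgg did not pass the filter, and 4 were tested. Thbs1, thrombospondin-1, had 159.9, 344 and 203 CPM in CD41pos KO libraries, against 64.7, 4.88 and 14.9 CPM in CD41pos WT libraries. It rose by 3.06 ± 0.82 in KO CD41pos HSCs (adjusted p = 0.0264), and the CD41neg difference did not pass. Vwf, von Willebrand factor, averaged 263 ± 56.7 CPM in CD41pos KO and 32.8 ± 11.1 CPM in CD41neg KO libraries, and 190.3 ± 87.2 CPM in CD41pos WT and 45.8 ± 30.4 CPM in CD41neg WT libraries (SD, n = 3 each). It was higher in CD41pos HSCs by 3.0 ± 0.50 in KO (adjusted p = 0.00702) and by 2.05 ± 0.49 in WT (adjusted p = 0.0302), and passed in neither gate between genotypes.

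**Figure D5:**
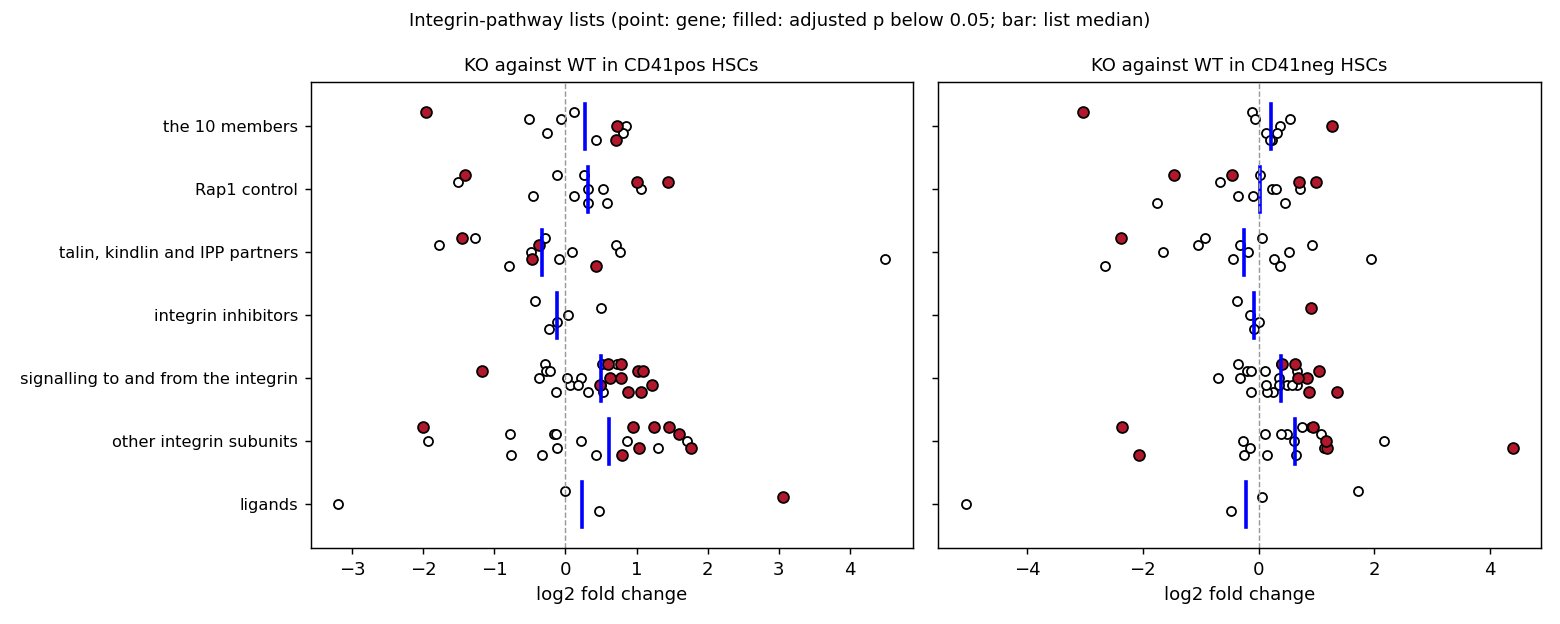
Log2 fold changes of the members and of the 6 pathway lists for KO against WT in CD41pos and in CD41neg HSCs, 1 point a gene, filled where the adjusted p was below 0.05, with the list's median as a bar. Filled points of the signalling and integrin subunit lists lie mostly above 0, and those of the talin, kindlin and ILK complex partners mostly below 0.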

How the data were processed

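Sorted HSCs of both gates and genotypes were profiled by RNA-seq with a SMART-Seq v4 Ultra Low Input kit, which does not mark strand, per the labels' protocols. Per the submitters' processing notes, the mm10 build was used with STAR 2.6.1e, featureCounts 1.6.2, FastQC 0.11.7 and cutadapt 1.9.1, and no annotation release is stated. What the authors deposited is raw gene counts, the basis of all main tests, and TPM values of the same genes, used for the chain ratio and as an alternative. The deposited TPM appears to be divided by a length that grows with the number of transcripts a gene has, by 1.48 times for genes with 2 RefSeq transcripts relative to those with 1, so levels were compared between genes as CPM per kb of the longest GENCODE vM21 transcript with a RefSeq match. Within a gene this does not matter.

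Of 35869 genes, 19395 passed filterByExpr and 16474 were left out. All 12 libraries entered 1 quasi-likelihood fit of the 4 group means (edgeR 4.0.16, R 4.3.3, TMM, 8 residual degrees of freedom). The tests were two-sided, with Benjamini-Hochberg adjustment over all genes tested and a threshold of 0.05. The SE comes from the F statistic, and a ± beside a log2 difference is this SE. The code was tested on simulated data. Replicate libraries differed beyond counting noise, with a chi-square per degree of freedom of 20.5 to 433 (no pair was identical). Same-numbered KO libraries deviated together across gates (correlations 0.44, 0.62 and 0.51 over 10206 genes), and the WT ones did not all do so (0.11 and -0.51). The number in the labels' titles was taken as the animal's.

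The members, the lists and the tests were chosen with earlier results of these data known. Named genes were the 10 members, up to 3 genes a list with the smallest adjusted p past the threshold, and the 5 nearest genes of each chain. Nr4a1, Ddx3y, Xist and Runx1 are named to describe the libraries and were picked with their values known, and so were single marker genes. Alternatives were DESeq2 1.42.0, its size factors, other filters, limma 3.58.1 on log2(TPM + 1) and log2(TPM + 0.1), replicate blocks, terms for or without the WT libraries numbered up to 6 or over 6, a Y-linked covariate, and leaving out each library.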

Additional observations from a re-analysis of the deposited data

How the results depend on the processing

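Over 1245 recomputed differences of single genes, 1154 kept their side of the threshold (41 of these changed sign without passing on either side), 58 lost the call, 33 gained one, and 0 called differences turned round. The main counts of genes passing were 3 and 2 for KO against WT in CD41pos and CD41neg HSCs, 6 and 6 for CD41pos against CD41neg in KO and WT, and 0 for the interaction. In the same order, 17.1%, 7.82%, 2.79%, 5.59% and 0% of all genes passed. For the WT libraries with numbers up to 6, a term in the fit gave 5 in CD41pos and 1 in CD41neg HSCs, and leaving those libraries out gave 8 in CD41pos HSCs, 1 in CD41neg HSCs and 4 for the interaction. With that term 23.6% of all genes passed in CD41pos and 8.68% in CD41neg HSCs, against 17.1% and 7.82% in the main fit. Without the WT libraries numbered over 6 the CD41neg count was 4, where 19.5% of all genes passed. It was 1 with a filter of at least 1 CPM in 6 libraries (where Parva was not tested), and 10.3% of all genes passed. It was also 1 with only the groups compared (not run for the interaction), with log2(TPM + 0.1), and with a block for the replicate number. There 8.36%, 5.55% and 2.36% of all genes passed. The log2 chain ratio, KO minus WT, moved to -0.64 in CD41pos and 0.086 in CD41neg HSCs without the WT libraries numbered up to 6. Leaving out 1 library at a time gave counts of 2 to 3 in CD41pos, 0 to 3 in CD41neg, 5 to 6 between gates in KO, 5 to 6 in WT and 0 for the interaction. Of all genes 4.76% to 20% passed in CD41pos, 1.68% to 18.9% in CD41neg, 0.967% to 5.09% between gates in KO and 2.15% to 5.72% in WT. Of the replicate blocks, the animal label as a fixed block over all libraries gave 5 between gates in KO and 1 in WT. There 0.804% and 0.217% of all genes passed. In WT only 2 numbers occur in both gates, and the libraries of number 4 differ in Ddx3y. As a random block, with a consensus correlation of -0.013, the animal label gave 6 in KO and 7 in WT, where 3.02% and 5.85% of all genes passed. Other causes were not tested. Depth limits Parva, at 5 to 176 counts a library.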
